A study of Mus musculus with 2 samples.

Results

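The data concern 7 genes of the tetraspanin family, *Cd9*, *Cd63*, *Cd81*, *Cd82*, *Cd151*, *Tspan3* and *Tspan10*, out of 32285 genes counted in melanocyte stem cells (McSCs) and mature melanocytes of mouse hair follicles. These genes, and the gene lists used below, were chosen by name with earlier results of these data known. The 7 genes were read in single cells that held at least 1 UMI (1 counted RNA molecule) of the melanocyte gene *Dct*. Each cell also held fewer than 3 UMIs of the keratinocyte genes *Krt10* and *Krt14* summed, and less than 5% mitochondrial UMIs. A cell also needed more than 10000 UMIs in the early-anagen library or more than 5000 in the bulb library, which left 2785 of 11010 early-anagen barcodes and 3734 of 4327 bulb barcodes. The 2 libraries shared 1 barcode, and no barcode was shared between the selected cells.

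Both libraries came from Dct-rtTA; tetO-H2B-GFP mice, in which doxycycline makes *Dct*-expressing cells carry a green histone, and cells were sorted for GFP. Every mouse, in both groups, carried both transgenes and received doxycycline chow for 4 days. The early-anagen McSCs were taken 4 days after hair was plucked at 8 weeks of age (anagen II), and the mature melanocytes came from dissected bulbs of fully growing follicles (anagen VI) at 5 weeks of age, with no depilation described. Each library pooled the cells of 4 mice of mixed background. The GFP label follows the *Dct* promoter and so does not by itself separate a stem cell from its pigmented progeny. Among barcodes past the UMI and mitochondrial limits, 26 in early anagen and 13 in the bulb held no *Dct* UMI and were left out. The limit on *Krt10* and *Krt14* left out 677 of 3464 such barcodes in early anagen and 29 of 3774 in the bulb, and a barcode could fail both. This limit is a fixed number of UMIs, so it did not weigh alike in libraries of unlike depth. Early-anagen skin was dissociated with trypsin and sequenced with kit version 3, whereas bulbs were treated with EDTA, collagenase and dispase and sequenced with kit version 2. With 1 library per group there is no test, and condition, age, depilation, dissociation, chemistry and depth cannot be told apart. All 95% intervals given below cover counting error only.

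Tetraspanins are small membrane proteins that cross the membrane 4 times and gather integrins, immunoglobulin-like proteins and proteases into shared microdomains. CD9, CD81, CD82 and CD151 sit mainly at the cell surface, where they modulate adhesion and migration, and CD63 cycles through late endosomes, lysosomes and exosomes. In pigment cells CD63 helps to sort the fibril protein PMEL within early melanosomes. TSPAN10 belongs to the TspanC8 group, which escorts the protease ADAM10 to the membrane, and is known from the pigment cells of skin and eye.

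The promoters of *Cd9*, *Cd63* and *Tspan10* are shown because these genes had the lowest and highest bulb ratios and the clearest difference by *Oca2*. The sequences are those of RefSeq on GRCm38.p6, from 250 bases before to 50 bases after the annotated start, written 5′ to 3′ on the strand of the gene. Capitals mark CATGTG, read on either strand, the core letters of the E-box bound by the melanocyte factor MITF. *Cd9* is at chr6:125494711-125495010 on the minus strand, *Cd63* at chr10:128909095-128909394 on the plus strand and *Tspan10* at chr11:120442381-120442680 on the plus strand.

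Cd9: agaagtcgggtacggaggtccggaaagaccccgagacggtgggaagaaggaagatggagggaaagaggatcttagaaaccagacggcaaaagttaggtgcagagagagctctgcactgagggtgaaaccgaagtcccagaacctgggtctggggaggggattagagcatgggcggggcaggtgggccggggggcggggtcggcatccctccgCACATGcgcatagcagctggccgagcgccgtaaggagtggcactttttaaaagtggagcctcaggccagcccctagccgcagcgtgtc
Cd63: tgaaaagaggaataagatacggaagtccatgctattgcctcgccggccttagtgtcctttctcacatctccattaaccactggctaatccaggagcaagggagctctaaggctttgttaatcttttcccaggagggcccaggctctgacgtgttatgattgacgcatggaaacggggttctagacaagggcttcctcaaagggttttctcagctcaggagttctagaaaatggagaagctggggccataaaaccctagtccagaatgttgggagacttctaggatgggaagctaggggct
Tspan10: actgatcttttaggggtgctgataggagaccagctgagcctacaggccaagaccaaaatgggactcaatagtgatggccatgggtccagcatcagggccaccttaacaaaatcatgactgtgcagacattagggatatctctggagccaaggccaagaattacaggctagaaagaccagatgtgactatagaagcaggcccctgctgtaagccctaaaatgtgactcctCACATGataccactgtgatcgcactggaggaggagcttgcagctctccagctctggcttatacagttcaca

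All 7 genes matched the table, with 11 promoters. CATGTG occurred once in the window of *Cd9* (38 bases before the start), of *Tspan3* (247 bases before) and of *Tspan10* (21 bases before), each time with the letters of the capitals or their reverse complement. The second E-box searched, CACGTG, which is its own reverse complement, occurred in none of the 11. Among all 32544 mouse promoters of this length, 14.2% held CATGTG, 7.17% held CACGTG and 20.5% held either. A match is a description of these letters and not a site, and the gene with the highest bulb ratio, *Cd63*, held none in its window. The windows of *Cd63* and *Tspan3* lie inside the GENCODE spans given below and do not include the 5′ ends of those spans.

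In GENCODE annotation of GRCm38 the genes lie on 6 chromosomes: *Cd9* at chr6:125460266-125494791, *Cd63* at chr10:128900989-128912822, *Cd81* at chr7:143052739-143067934, *Cd82* at chr2:93419111-93463140, *Cd151* at chr7:141467392-141471473, *Tspan3* at chr9:56131725-56165477 and *Tspan10* at chr11:120442644-120446950. Genes on the opposite strand overlap *Cd9*, *Cd81*, *Cd82* and *Cd151*, and only *Cd82* has an annotated gene on its own strand, the microRNA Mir7001. Levels are UMIs summed over cells and scaled to counts per 1000000 UMIs of those cells (CPM). A UMI marks 1 transcript 3′ end, so CPM was not divided by length.

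Depth differed between the libraries, with medians of 24528 UMIs per early-anagen cell and 14286.5 per bulb cell, and summed totals of 75718468 and 55883067 UMIs. The 8 melanocyte markers were present in both, at 24638 summed CPM in early anagen and 67431 in the bulb, and the 9 epidermal markers summed to 60.5 and 41.0 CPM. These sums include genes that the selection used, so they are in part set by it. *Dct* was the highest melanocyte marker in early anagen (7799 CPM) and *Krt10* the highest epidermal marker in the bulb (16.2 CPM). Fibroblast, endothelial and mural markers summed to less than 1 CPM in each library, and 4 immune markers to 16.7 and 7.62 CPM. Of the bulb cells, 25 (0.67%) carried under 0.1 of the median *Dct* level of their library, as did 2 of the early-anagen cells. All deep barcodes of this kind, termed *Dct*-low cells here, numbered 65 in early anagen, where epidermal markers made up 46640 CPM and melanocyte markers 177 CPM, and 48 in the bulb, where epidermal markers made up 4833 CPM and melanocyte markers 4657 CPM. Their levels are given below for comparison, with the bulb group carrying markers of both kinds. The melanocyte sums of these cells include *Dct*, which defined them. This group was defined after the data were seen, since barcodes rich in *Krt10* and *Krt14* numbered only 2 in the bulb.

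The tetraspanins separated into 1 gene that was far less abundant in bulb melanocytes, 4 that were more abundant there and 2 that differed less than 2-fold by total UMIs. Of these 2, *Cd81* passed 2-fold with TMM scaling or relative to the median of the 15502 genes with a UMI in both libraries, but not relative to the median of the 8020 genes with at least 10 CPM in either (0.93). *Cd9* had the lowest bulb ratio of the 7 and *Cd63* the highest, and *Cd63* was the most abundant member in both libraries. By a limit of 2-fold with an interval clear of 1, 4 of 7 members were higher in the bulb, against 16.3% of the 8020 genes with at least 10 CPM in either library. 1 of 7 was lower, against 28.7% of those genes. Because the members were chosen with earlier results of these data known, these shares describe them and are not a test. As a log2 ratio (bulb over early anagen), the median was 1.18 for the 7 members and -0.18 for the 8020 genes. Over the 15502 genes with a UMI in both libraries the median was -0.42, and values relative to that shift are given with each member as relative to the median gene. Scaling decides the overall split, with higher genes making up 36.2% of all genes past the limit by total UMIs, 51.7% after edgeR TMM scaling, 57.0% after centring on the median gene and 45.03% after centring on the median of the 8020 genes.

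**Figure D1:**
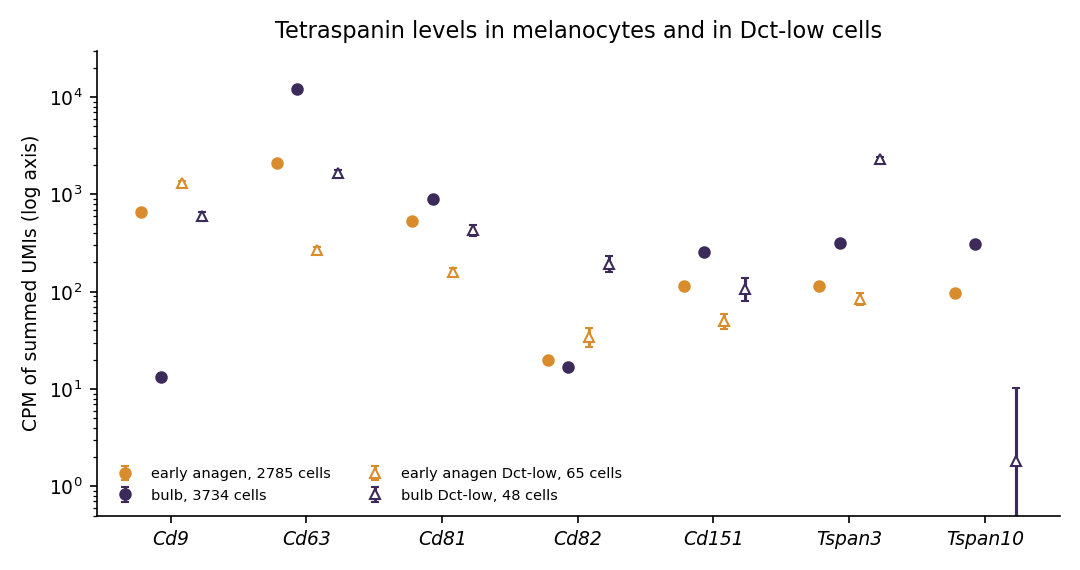
Level of each tetraspanin in CPM of summed UMIs (log axis) in selected cells (filled circles) and in Dct-low cells (open triangles) of the early-anagen (orange) and bulb (purple) libraries, with exact 95% Poisson intervals. Cd9 stands at 659 CPM in early anagen and 13.3 CPM in the bulb, Cd63 at 2095 and 12132 CPM, and Tspan10 in early-anagen Dct-low cells is not drawn because it had 0 UMIs.

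Of the surface tetraspanins, *Cd9*, which binds integrins and the immunoglobulin-like protein PTGFRN and takes part in fusion and motility, stood at 659 CPM (653 to 665) in McSCs of early anagen, whereas bulb melanocytes had 13.3 CPM (12.4 to 14.3). The level in the bulb was 49.4-fold lower, a log2 ratio of -5.63 (-5.73 to -5.52), or -5.20 relative to the median gene. With every cell thinned at random to 10000 UMIs, *Cd9* was detected in 98.2% (97.7 to 98.7) of 2785 early-anagen cells and in 6.96% (6.12 to 7.89) of 3288 bulb cells. At full depth the shares were 99.9% and 9.19%. Per thinned cell, *Cd9* ran from 1 UMI at the 5th percentile through a median of 6 to 15 at the 95th percentile in early anagen, whereas in the bulb the median was 0 and the 95th percentile 1. The 2 libraries thus overlapped only in the tails of this gene.

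What *Cd9* remained in the bulb was unevenly spread. The 25 *Dct*-low bulb cells held 135 of its 745 UMIs, and without them the level was 10.97 CPM and the log2 ratio -5.91 (-6.02 to -5.79). Among the 3709 bulb cells left, 3385 (91.3%) held no *Cd9* UMI, 215 held 1, 51 held 2 and 58 held 3 or more. The *Dct*-low cells themselves carried *Cd9* at 598 CPM in the bulb and 1315 CPM in early anagen, so there was no set of cells here that lacks *Cd9* and could give a background share. At 10000 UMIs, the 61 bulb melanocytes with 2 or more *Cd9* UMIs also held more of some keratinocyte transcripts. *Sfn* was at 96.7 CPM against 1.57 in the 3054 cells without *Cd9*, *Lgals7* at 39.3 against 1.34 and *Perp* at 27.9 against 0.20. *Dsp* was at 4.92 against 0.13 CPM, *Krt14* at 1.64 against 0 and *Krt5* at 1.64 against 0.10. *Krt10* went the other way, at 11.5 against 16.2 CPM, and *Krt1* and *Krt15* were at 0 in both sets. The selection limits *Krt10* and *Krt14* in all these cells. In the same 61 cells *Oca2* was at 290 CPM against 565, *Tspan10* at 259 against 316 and *Cd63* at 10221 against 12307, while *Kit*, the receptor for stem cell factor, was at 108 against 109 CPM. The ratio of *Cd9* UMIs to UMIs of *Perp*, *Sfn*, *Lgals7* and *Dsp* was 1.65 in bulb melanocytes and 0.13 in bulb *Dct*-low cells. Without every cell that held a UMI of these 4 genes, the log2 ratio of *Cd9* was -5.96. The part of keratinocyte RNA in the bulb *Cd9* counts was not tested.

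*Cd81*, which associates with *Cd9* in the same surface complexes, was at 535 CPM (530 to 541) in early anagen and 896 CPM (888 to 904) in the bulb. The log2 ratio was 0.74 (0.72 to 0.76), under the 2-fold limit by total UMIs, 1.17 relative to the median gene, past it, and 0.93 relative to the median of the 8020 genes, under it. Nearly every cell held it at 10000 UMIs, 98.5% in early anagen and 98.3% in the bulb, and the median per cell was 5 and 8 UMIs. *Cd81* remained in bulb melanocytes where *Cd9* was almost gone.

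*Cd151*, a partner of laminin-binding integrins, was at 114 CPM (112 to 117) in early anagen and 259 CPM (255 to 263) in the bulb, 2.26-fold higher. Its log2 ratio was 1.18 (1.14 to 1.22), or 1.60 relative to the median gene. At 10000 UMIs it was detected in 68.0% (66.3 to 69.8) and 91% (89.9 to 91.9) of cells. Leaving out early-anagen cells in the cell cycle gave a log2 ratio of 0.94, just under the limit.

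*Cd82*, first known as a suppressor of metastasis, was the scarcest member in early anagen and, after *Cd9*, in the bulb, at 19.7 CPM (18.7 to 20.8) in early anagen and 16.8 CPM (15.8 to 17.9) in the bulb. Its log2 ratio of -0.23 (-0.35 to -0.11) became 0.19 relative to the median gene and 0.08 with TMM scaling, so its direction depends on the scaling. It was detected in 19.5% and 14.3% of cells at 10000 UMIs. In *Dct*-low cells it stood higher than in either set of melanocytes, at 34.3 CPM in early anagen and 194 CPM in the bulb.

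Of the endosomal and pigment-cell tetraspanins, *Cd63* was at 2095 CPM (2085 to 2106) in early anagen and 12132 CPM (12103 to 12161) in the bulb, 5.79-fold higher. The log2 ratio was 2.53 (2.53 to 2.54), or 2.96 relative to the median gene. Every one of the bulb cells and all but 1 of the early-anagen cells held a UMI. At 10000 UMIs a bulb cell held a median of 122 *Cd63* UMIs, from 75 at the 5th to 169 at the 95th percentile, and an early-anagen cell a median of 21, from 10 to 40. The middle 90% of cells in the 2 libraries did not overlap. *Dct*-low cells held 268 CPM in early anagen and 1663 CPM in the bulb, below the melanocytes of their own library in each case.

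*Tspan3*, a widely expressed member, was at 114 CPM (111 to 116) and 319 CPM (314 to 324), 2.80-fold higher in the bulb. Its log2 ratio was 1.49 (1.45 to 1.52), or 1.91 relative to the median gene. Detection at 10000 UMIs was 65.4% in early anagen and 94.3% in the bulb. The highest bulb cell held 103 UMIs while the 95th percentile was 7. The bulb *Dct*-low cells carried *Tspan3* at 2323 CPM, above the bulb melanocytes, and without them the bulb level was 306 CPM and the log2 ratio 1.43.

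*Tspan10* was at 96.4 CPM (94.2 to 98.6) in early anagen and 309 CPM (304 to 314) in the bulb, 3.21-fold higher, with a log2 ratio of 1.68 (1.64 to 1.72), or 2.10 relative to the median gene. It was the member with the fewest UMIs in *Dct*-low cells. None of the 65 early-anagen *Dct*-low cells held a UMI, which by a limit of 3 counts allows a share of cells with a UMI of up to 4.62% (Clopper-Pearson upper bound 5.52%), and at 10000 UMIs 1 of 31 bulb *Dct*-low cells did (3.23%, 0.08 to 16.7). In melanocytes thinned alike it was detected in 50.3% (48.4 to 52.2) of early-anagen and 87.7% (86.6 to 88.8) of bulb cells. Poisson counts with the mean of each library would give 63.6% and 95.5%, above the shares observed, and the highest cells held 11 and 14 UMIs.

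**Figure D2:**
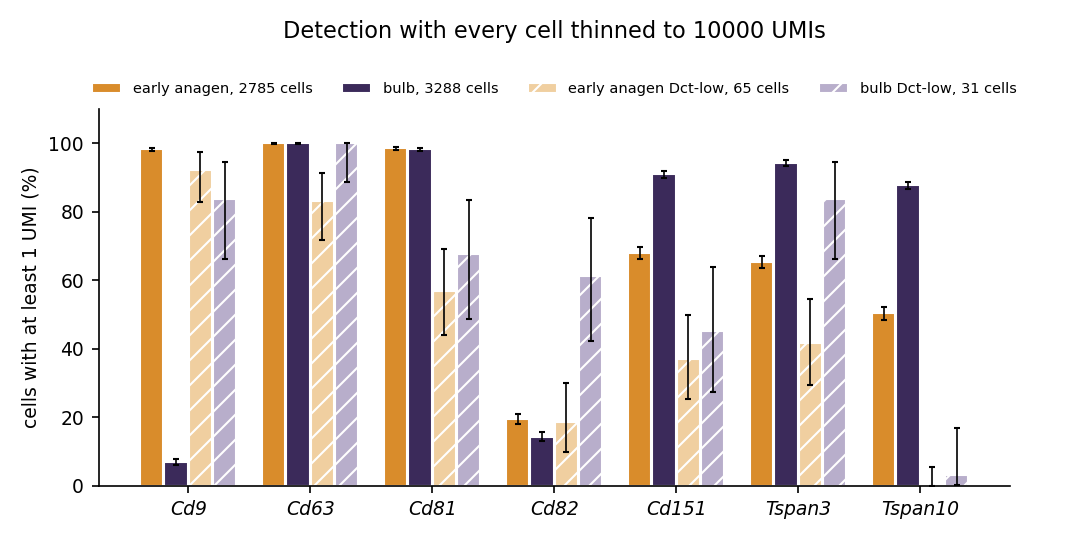
Share of cells with at least 1 UMI of each tetraspanin after every cell was thinned to 10000 UMIs, with Clopper-Pearson 95% intervals, for selected cells (solid bars) and Dct-low cells (hatched bars) of each library. Cd9 stands at 98.2% of early-anagen and 6.96% of bulb cells, whereas Cd151, Tspan3 and Tspan10 stand at 87.7% to 94.3% in the bulb, and Tspan10 at 0% and 3.23% in Dct-low cells.

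Within the early-anagen library, cells were split by *Oca2*, which encodes a melanosomal channel protein needed for pigment and is a marker of melanocyte differentiation. At 10000 UMIs, 303 of 2785 cells (10.9%, 9.75 to 12.1) held an *Oca2* UMI. At full depth 454 cells (16.3%) did, so some cells called *Oca2*-negative here hold *Oca2* RNA. The split was made inside 1 library, so chemistry, age and dissociation were shared by both sides. *Tspan10* was higher and *Cd9* lower in *Oca2*-positive cells, the same 2 directions as in the bulb, although the bulb ratios rest on these early-anagen cells too. By a limit of 1.5-fold, 1 of 7 members was higher, against 6% of the 7755 genes with at least 10 CPM on either side, and 1 of 7 was lower, against 6.25%. The median log2 ratio of the members was -0.26, and that of the 7755 genes 0.03.

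*Tspan10* was at 88.9 CPM in *Oca2*-negative and 201 CPM in *Oca2*-positive cells, a log2 ratio of 1.17 (1.04 to 1.31). It was detected in 46.5% (44.5 to 48.5) of the former and 81.5% (76.7 to 85.7) of the latter. By the number of *Oca2* UMIs the level was 88.9 CPM in 2482 cells with 0, 181 CPM in 152 cells with 1, 210 CPM in 60 cells with 2 and 227 CPM in 91 cells with 3 or more. The largest step was from 0 to 1 UMI, and the intervals of the last 3 groups overlapped.

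*Cd9* was at 744 CPM in *Oca2*-negative and 442 CPM in *Oca2*-positive cells, a log2 ratio of -0.75 (-0.83 to -0.67). With all UMIs of each cell it was -0.59 (-0.63 to -0.55), only just past the limit. The median per cell was 7 and 4 UMIs. With 0, 1, 2 and 3 or more *Oca2* UMIs the level was 744, 459, 493 and 381 CPM. Detection stayed high, at 98.7% and 94.7%, so nearly all *Oca2*-positive early-anagen cells still carried *Cd9*, unlike the bulb cells.

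*Cd63* was at 2157 and 2979 CPM, a log2 ratio of 0.47 (0.43 to 0.50), under the limit, and stood at 2722 CPM with 1, 3110 with 2 and 3321 with 3 or more *Oca2* UMIs. With 2 or more *Oca2* UMIs against 0 its ratio was 0.59, past the limit. *Cd81* was lower in *Oca2*-positive cells, at 562 and 421 CPM (log2 ratio -0.42, -0.50 to -0.33), while it was higher in the bulb. *Cd151* likewise was at 127 and 106 CPM (-0.26, -0.43 to -0.09). *Cd82* was at 23 and 17.2 CPM (-0.42, -0.86 to -0.01), and *Tspan3* at 112 and 112 CPM (0.01, -0.16 to 0.17). *Tspan3* and *Cd151*, both past the limit in the bulb, were thus not higher in *Oca2*-positive early-anagen cells.

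**Figure D3:**
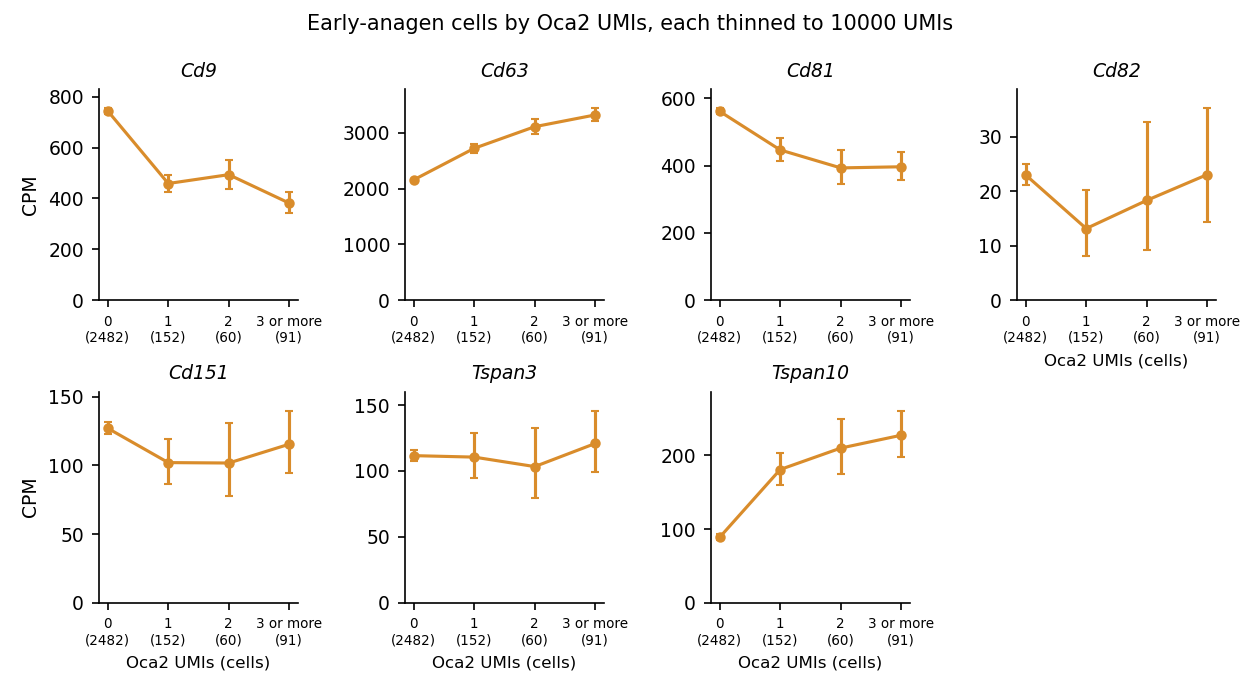
Level of each tetraspanin in CPM (linear axes from 0, scaled per gene) in early-anagen cells with 0, 1, 2, or 3 or more Oca2 UMIs, the number of cells under each bin, with exact 95% Poisson intervals and every cell thinned to 10000 UMIs. Tspan10 goes from 88.9 to 227 CPM and Cd63 from 2157 to 3321 CPM, Cd9 from 744 to 381 CPM, and the intervals of Cd82, Cd151 and Tspan3 are wide in the bins with few cells.

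*Oca2*-positive cells were less often in cycle, with a UMI of *Mki67* or *Top2a* in 24.8% against 37.8% of cells, and deeper before thinning, with medians of 27305 and 24125.5 UMIs. Among the 1773 cells without such a UMI, the log2 ratio by *Oca2* was -0.83 for *Cd9* and 1.07 for *Tspan10*, and among the 1012 cycling cells -0.58 and 1.31. The directions were therefore shared by both, but *Cd9* in cycling cells was 1.497-fold lower, just short of the limit. Summed epidermal markers were at 75.8 CPM in *Oca2*-negative and 62.4 CPM in *Oca2*-positive cells.

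When only cells with an *Oca2* UMI were compared between libraries, thinned to 10000 UMIs, the gap in *Cd9* was as large, 442 CPM in early anagen against 8.96 CPM in the bulb (log2 ratio -5.63, -5.82 to -5.44). The ratio of *Tspan10* shrank to 0.67 (0.56 to 0.79) and that of *Cd63* to 2.05 (2.02 to 2.08). *Cd81* was at 1.08, *Cd151* at 1.32 and *Tspan3* at 1.43. *Tspan10* in *Oca2*-positive early-anagen cells, at 201 CPM, lay between *Oca2*-negative early-anagen cells and bulb cells, whereas *Cd9* at 442 CPM was nearer to the 744 CPM of the former than to the bulb.

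**Figure D4:**
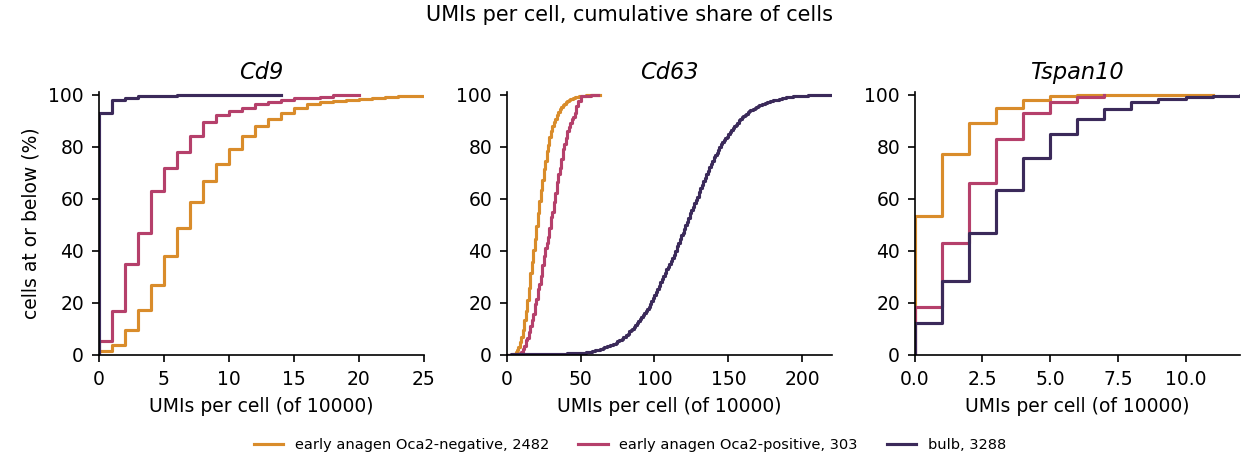
Cumulative share of cells (vertical axis, %) at or below a number of UMIs per cell (horizontal axis, of 10000 UMIs) for Cd9, Cd63 and Tspan10 in 2482 Oca2-negative and 303 Oca2-positive early-anagen cells and 3288 bulb cells. The curves of Oca2-positive cells lie beside those of the other early-anagen cells for Cd9 (median 4 against 7, bulb 0) and Cd63 (30 against 21, bulb 122). For Tspan10 the median is nearer the bulb (2 against 0, bulb 3), and the 95th percentile is nearer the other early-anagen cells (5 against 4, bulb 8).

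The bulb itself held few cells without *Oca2*, 162 of 3288 at 10000 UMIs, of which 144 were left without *Dct*-low cells. In these 144 cells *Tspan10* was at 134 CPM (116 to 154) against 320 CPM (314 to 327) in 3126 *Oca2*-positive bulb cells, a log2 ratio of 1.26 (1.05 to 1.47). *Cd63* was at 9635 against 12307 CPM and *Cd9* at 45.1 against 8.96 CPM. The *Cd9* level of the 144 cells rests on 65 UMIs held by 26 of them (18.1%). Bulb cells with 2 or more *Cd9* UMIs also held more of some keratinocyte transcripts, as given above, and the part of these in this split was not tested. *Tspan10* was thus the member that stood higher with *Oca2* by more than 1.5-fold within each library, and *Cd9* the member that stood lower. The other 5 members were neither in this bulb split without *Dct*-low cells. With those cells kept, 3 members were lower. These were *Cd9*, *Cd82* (37.7 CPM in 162 *Oca2*-negative against 15.5 in *Oca2*-positive cells) and *Tspan3* (586 against 303 CPM). The share of all genes past the limit in the bulb split was not counted, so these calls cannot be set against genes at large. The median log2 ratio of 6870 genes there was -0.05.

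By the cell cycle no member passed the limit when 1 UMI of *Mki67* or *Top2a* marked a cycling cell. In 1012 cycling against 1773 other early-anagen cells, 0 of 7 members were higher by 1.5-fold, against 8.75% of 7758 genes, and 0 of 7 were lower, against 3.17%. *Cd63* (1794 against 2504 CPM), *Cd151* (99.6 against 139 CPM) and *Tspan10* (80.0 against 113 CPM) had log2 ratios of -0.48, -0.48 and -0.50, below but near the limit. *Cd9* was at -0.13, *Cd81* at 0.06, *Cd82* at -0.16 and *Tspan3* at 0.07. With at least 2 UMIs of *Mki67* and *Top2a* as the mark of cycling cells, *Cd63*, *Cd151* and *Tspan10* passed the limit, at -0.60, -0.60 and -0.66. The share of all genes past the limit was not counted with that mark, so these calls cannot be set against the shares above. Cycling cells were also deeper before thinning, with a median of 34684.5 UMIs against 20991.

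Among early-anagen cells, the genes with counts most like those of a member were sought over 2818 genes of at least 50 CPM, by Pearson r of log UMIs per thinned cell over 2785 cells of the same library and depth. For *Cd9* they were *Vim*, an intermediate filament (r = 0.51), *Lmna*, a nuclear lamin (0.35), and *Lgals3*, a galectin (0.33). For *Cd63* they were *Dct* (0.44), *Pmel* (0.38) and *S100a1* (0.38), and for *Tspan10* *Dct* (0.46), *Pmel* (0.46) and *Mgll*, a lipase (0.42). For *Cd81* the highest was *Anxa1* (0.26), and for *Cd82*, *Cd151* and *Tspan3* no gene reached 0.2. Among the 21 pairs of members, r ran from -0.18 to 0.27, highest for *Cd63* with *Tspan10*. In the bulb, without *Dct*-low cells, it ran from -0.16 to 0.17.

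The remaining family members differed among themselves in direction. Of 24 further tetraspanin genes, 10 reached 10 CPM in either library, of which 4 were past 2-fold higher in the bulb, 1 lower and 5 neither, with a median log2 ratio of 0.72. Over all 8020 genes 16.3% were higher and 28.7% lower. Relative to the median gene, 6 of the 10 were past 2-fold higher, against 26.7% of all genes, and relative to the median of the 8020 genes 4 were. The higher ones were *Tspan13* (4.00 to 40.3 CPM, log2 ratio 3.33), *Tspan31* (87.5 to 295 CPM, 1.75), *Tspan9* (1.34) and *Tspan5* (56.4 to 139 CPM, 1.30). *Tspan2*, close in sequence to *Cd9*, was at 42.9 CPM in early anagen and 0.88 CPM in the bulb, 48.9-fold lower. *Cd9* and *Tspan2* were thus the tetraspanins with at least 10 CPM that were past 2-fold lower in the bulb. A low bulb level alone did not set them apart, since *Cd82* was at 16.8 CPM there and 14 of the 24 further genes stayed under 10 CPM in both libraries. By *Oca2*, 8 of the 24 reached 10 CPM, of which *Tspan5* alone was past 1.5-fold higher (46.0 to 117 CPM, log2 ratio 1.34) and none was lower, against 6% and 6.25% of all genes.

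*Tspan5* and *Tspan10* belong with *Tspan14*, *Tspan15*, *Tspan17* and *Tspan33* to the TspanC8 group. Of the 4 with at least 10 CPM, these 2 were past the limit both in the bulb and in *Oca2*-positive cells, and *Tspan14* and *Tspan17* in neither, although relative to the median gene *Tspan14* also passed in the bulb, at 1.11 (0.87 relative to the median of the 8020 genes). Of all genes tested, 16.3% were higher in the bulb and 6% by *Oca2*. When only cells with an *Oca2* UMI were compared between libraries, 0 of 4 TspanC8 genes were past 2-fold, although all 4 ratios were positive. Their median log2 ratio was 0.49, against -0.18 for all genes tested there. The share of all genes past 2-fold was not counted in that comparison, so 0 of 4 cannot be set against genes at large. *Tspan10* is also a member and was already counted above. *Adam10*, the protease they escort, was at 153 CPM in *Oca2*-negative and 265 CPM in *Oca2*-positive early-anagen cells (log2 ratio 0.80, 0.68 to 0.91), and at 65.05 CPM in the bulb against 168 CPM in all early-anagen cells, 2.59-fold lower. Relative to the median gene the bulb log2 ratio of *Adam10* was -0.95, short of 2-fold, and relative to the median of the 8020 genes -1.19.

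Of 18 listed partners at the membrane, 12 reached 10 CPM, and in the bulb 7 were lower, 1 higher and 4 neither, with a median log2 ratio of -1.22. Of all 8020 genes, 28.7% were lower and 16.3% higher. Relative to the median gene, 5 of 12 were lower, against 20.2% of all genes, and relative to the median of the 8020 genes 6 were. The lowest were *Ptgfrn*, the partner of CD9 and CD81 (11.3 to 0.21 CPM, log2 ratio -5.72), the receptors *Notch2* (-2.79) and *Notch1* (-2.58), and *Itga6*, a laminin-binding integrin subunit that pairs with CD151 (38.9 to 7.43 CPM, -2.39). The single higher one was *Igsf8*, the other immunoglobulin-like partner of CD9 and CD81 (238 to 518 CPM, 1.12), which was also higher in *Oca2*-positive cells (215 to 397 CPM, 0.89). With the total UMIs taken without mitochondrial, ribosomal protein and pigmentation genes, *Igsf8* was no longer past 2-fold. By *Oca2*, 2 of 12 partners were higher, *Igsf8* and *Adam10*, and 1 was lower, *Timp1*, a ligand of CD63 (31.1 to 13.5 CPM, -1.20). The other 9 were neither, and of the 7755 genes tested by *Oca2* 6% were higher and 6.25% lower.

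Genes of the multivesicular body and exosome, the compartment of CD63, were higher about as often as genes at large by total UMIs. Of 13 with at least 10 CPM among 14 listed, 2 were past 2-fold higher in the bulb, *Rab7* (156 to 372 CPM, log2 ratio 1.25) and *Lamp1* (577 to 1176 CPM, 1.03), 1 was lower and 10 were neither, with a median of 0.54. This compares with 16.3% higher and 28.7% lower of all 8020 genes. Relative to the median gene 5 of 13 were higher, against 26.7% of all genes, relative to the median of the 8020 genes 4, and with the reduced total described above *Rab7* alone. *Sdc4*, a syndecan that with syntenin feeds exosome formation, was at 43.8 CPM in early anagen and 0.75 CPM in the bulb (-5.87), while *Sdcbp*, syntenin itself, was at 695 and 1009 CPM (0.54). By *Oca2*, 1 of 13 was higher, 1 lower and 11 neither, near the 6% higher and 6.25% lower of the 7755 genes tested. *Rab27a*, a GTPase of melanosome and exosome release, was the higher one (81.1 to 152 CPM, 0.91) and *Sdc4* the lower one (50.04 to 28.1 CPM, -0.83). Of 4 genes that work with CD63 on the PMEL fibril, *Pmel* (1.82), *Mlana* (1.87) and the protease *Bace2* (1.11) were past 2-fold higher in the bulb, *Bace2* not with the reduced total, and *Apoe* was at -0.48. The bulb ratio of *Cd63* itself, 2.53, was above each of these 4. By *Oca2*, 3 of the 4 were past 1.5-fold higher and 1 was neither, against 6% of the 7755 genes higher. Their median log2 ratio by *Oca2* was 0.83, against 0.47 for *Cd63*, which was under the limit.

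**Figure D5:**
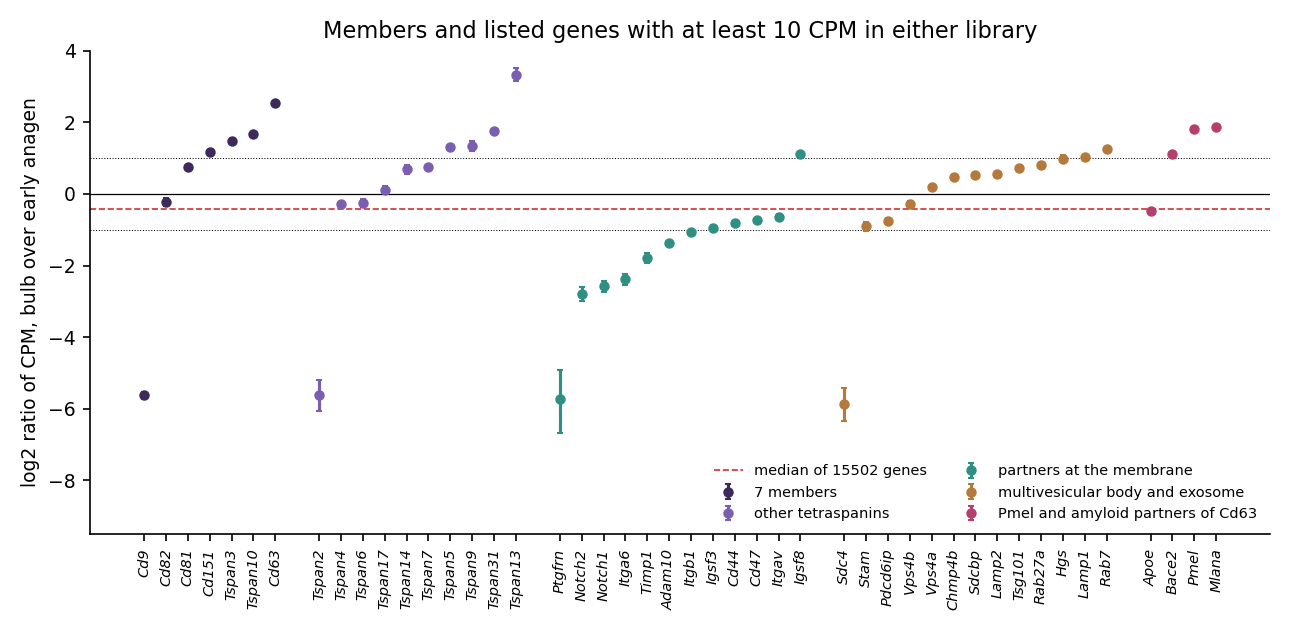
Log2 ratio of CPM, bulb over early anagen, for the 7 members and for listed genes with at least 10 CPM in either library, ordered within each list, with exact 95% intervals. Dotted lines mark 2-fold and the dashed line the median of all genes (-0.42). Cd9 (-5.63), Tspan2 (-5.61), Ptgfrn (-5.72) and Sdc4 (-5.87) lie apart from the other genes drawn.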

How the data were processed

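Per the labels, 2 droplet 3′ libraries were made, 1 of early-anagen McSCs (kit version 3) and 1 of bulb melanocytes (kit version 2). For each barcode and gene the authors deposited raw UMI counts, made with Cell Ranger 6.0.1 on mm10/GRCm38, without normalization. From these counts cells were selected by UMIs, mitochondrial share, *Dct*, *Krt10* and *Krt14*. UMIs were summed over cells, scaled to CPM and compared as ratios with exact 95% intervals (Poisson sums) or Clopper-Pearson intervals for shares, with Python 3.11.15, numpy 2.4.6 and scipy 1.17.1. Intervals cover counting error only. Differences between libraries used all UMIs, and splits within early anagen and shares used cells thinned to 10000 UMIs, which left out 446 bulb cells and 0 early-anagen cells. A gene was compared at 10 CPM or more on either side. Doublets were not called. The sort gated out doublets, and leaving out the 5% of cells with the most UMIs was an alternative. Ratios were tested on simulated Poisson counts. Counts in real cells spread more widely, with a variance over mean of 6.99 for *Cd63* in thinned bulb cells, so the simulation could not check the intervals for that spread. The members and gene lists were chosen with earlier results of these data known. Named genes are the members, the at most 4 with the largest ratio in each direction of each list, and genes used as checks. Keratinocyte genes of *Cd9*-positive bulb cells, *Sdcbp*, *Adam10* in the bulb and *Apoe* were named after their values were seen. Telogen cells were not analysed here.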

Additional observations from a re-analysis of the deposited data

How the results depend on the processing

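Of the counts of members past a limit, 59 of 62 alternatives gave the same count within 1.5-fold. With at least 2 *Oca2* UMIs against 0, 2 members were higher, *Cd63* and *Tspan10*. In cycling cells 1 member, *Tspan10*, was lower when all UMIs of each cell were used, and 3, *Cd63*, *Cd151* and *Tspan10*, with at least 2 UMIs of *Mki67* and *Top2a* against 0. The share of all genes past the limit was not counted under these alternatives of the *Oca2* and cycling splits. In the bulb the number of higher members ran from 3 without cycling early-anagen cells to 5 with TMM scaling or centring on the median of the 15502 genes, and was 4 with centring on the median of the 8020 genes, and *Cd9* was the 1 lower member under all 17 alternatives, between -6.09 and -5.20. *Cd63*, *Cd81*, *Cd151*, *Tspan3* and *Tspan10* had positive bulb log2 ratios under all 17, though not always past 2-fold. The ratio of *Tspan10* was smallest (0.67) when only cells with an *Oca2* UMI were compared. In that setting *Cd81* was past 2-fold and *Tspan10* was not, so the count stayed at 4. *Cd82* changed direction under 2 of the 17 and *Tspan3* by *Oca2* under 4 of 10. The alternatives without *Dct*-low cells, without cells with a UMI of *Perp*, *Sfn*, *Lgals7* or *Dsp*, and relative to either median were chosen after seeing the data. The cause of these shifts was not tested. No paired analysis was possible because each group is 1 library. Depth limits *Cd82* most, with a median of 0 UMIs per thinned cell in both libraries.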

Other observations

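Bulb cells with 2 or more *Cd9* UMIs differed in further genes. These were chosen after their values were seen, among those with the largest ratios over cells without *Cd9*. In the 61 such cells without *Dct*-low cells, the ratio among these was largest for *Fxyd5*, a regulator of the sodium pump (50.8 against 0.03 CPM). Next were *S100a16* (52.5 against 0.33), *Krt17*, a keratin of hair follicle epithelium (146 against 1.24), and *Fabp4* (73.8 against 0.72). *S100a6* (139 against 1.54) and *Tchh*, the inner root sheath protein trichohyalin (54.1 against 1.02), followed. Melanocyte genes stood closer, with *Dct* at 14852 against 16036 CPM, *Tyr* at 1393 against 1905 and *Mitf* at 380 against 327. Of the cycling markers, *Top2a* was at 16.4 against 5.14 CPM, and *Mki67* went the other way, at 1.64 against 2.32 CPM.

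Among *Dct*-low cells of the 2 libraries the tetraspanins differed as well. *Tspan3* was at 84.9 CPM in early anagen and 2323 CPM in the bulb, *Cd82* at 34.3 and 194 CPM, and *Cd63* at 268 and 1663 CPM, whereas *Cd9* was at 1315 and 598 CPM. The epidermal marker with the highest level was *Lgals7* (13305 CPM) in the former and *Sfn* (2618 CPM) in the latter, so their leading markers differed.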
